A study of Homo sapiens and Mus musculus with 92 samples.

Results

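The effects of knocking down MLL1 and of knocking down AF9 were set against each other in HEL cells, gene by gene. HEL is an established human erythroleukemia cell line that expresses genes of both the erythroid and the megakaryocytic lineage. The contrast was the log2 change in AF9 KD cells less the log2 change in MLL1 KD cells, each knockdown taken against the controls of its own experiment. It used 10 RNA-seq libraries of the 92 samples of the series, and 12730 of the 28103 genes in both count tables had a mean of at least 1 TPM (transcript abundance scaled for length and depth) in each experiment and were tested.

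MLL1, the product of KMT2A, is a histone H3 lysine methyltransferase of the COMPASS-like complexes and is recruited to CpG-rich promoters. AF9, the product of MLLT3, binds acylated histone H3 through its YEATS domain and is a subunit of the super elongation complex and of the DOT1L complex. In mixed lineage leukemia a chromosomal translocation can join the N terminus of MLL1 to the C terminus of AF9. HEL cells served the study as cells without such a rearrangement, so both proteins are encoded there by separate genes.

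The MLL1 experiment had 3 control and 3 MLL1 KD libraries, and the AF9 experiment 2 control and 2 AF9 KD libraries. The labels give the genotypes WT, MLL1 knockdown and AF9 knockdown. By the study's methods, HEL cells received a TRC control or a gene-specific shRNA by lentivirus and were selected with puromycin. The groups are thus pools of transduced cells and not clones. Poly(A) RNA was sequenced with strand-specific libraries. The labels do not say whether replicates came from separate transductions, so p-values measure the spread between these libraries. The experiment, the hairpin, the depth of the knockdown and the targeted gene changed together, so that their parts in any difference cannot be told apart.

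The study describes its RNA-seq after the knockdowns with MLL1 shRNA #1 and AF9 shRNA #1, although the labels of these libraries do not name the hairpin. The target sites are shown because they are what sets the 2 knockdowns apart by design. Capitals mark the 21 bases that each hairpin matches, and lower case the 4 transcript bases on either side.
MLL1 shRNA #1 in KMT2A: tctaGCACTGTTAAACATTCCACTTcctc
AF9 shRNA #1 in MLLT3: gtttTTCAAAGCCTCACAAATTAATgaag
The capitals of the first site lie at chr11:118474149-118474169 (hg38, plus strand), in the coding sequence of exon 3 of the 36 exons of the canonical KMT2A transcript. Those of the second lie at chr9:20414247-20414267 (minus strand), in the coding sequence of exon 5 of the 11 exons of the canonical MLLT3 transcript. Among the annotated transcripts the AF9 site matched MLLT3 alone, and the MLL1 site matched KMT2A and 1 unnamed readthrough model over the same exon.

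Gene counts summed to 6966345 to 10380241 per library in the MLL1 experiment and to 12278989 to 14232408 in the AF9 experiment. The leading principal component held 76.6% of the variance of log2 expression and separated the 2 experiments, and the next (9.98%) separated replicate 1 of the MLL1 experiment, control and MLL1 KD alike, from all other MLL1 libraries. Deviations from the group means correlated across genes at 0.687, 0.379 and 0.407 between MLL1 KD libraries and controls of the same number. Between numbers 2 and 3 they correlated at 0.415 in both crossings, and between number 1 and the others at -0.558 to -0.497, so that the values set replicate 1 apart but do not tell number 2 from 3. Results are therefore given from a fit of 4 group means and from a fit with the replicate number of the MLL1 libraries as a block, and where a count of a gene list comes from 1 fit, that fit is named. Levels are in CPM (counts scaled to a common library total with TMM factors over the tested genes), and changes are log2 values ± SE. Adjusted p-values come from the quasi-likelihood test of edgeR and are adjusted over all 12730 genes by the Benjamini-Hochberg method. A call needed a change of at least 1.5-fold and an adjusted p under 0.05. As a check of the cell line, 28 of 32 erythroid genes exceeded 10 CPM in some library, as did 17 of 24 megakaryocyte and platelet genes, 13 of 20 mast cell and eosinophil genes, 5 of 19 neutrophil and monocyte genes and 3 of 14 lymphoid markers.

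The targeted genes were checked first. KMT2A (chr11:118436456-118526832, plus strand) stood at 1300.0, 1291 and 1248 CPM in the controls of the MLL1 experiment and at 806, 806 and 829 CPM in MLL1 KD cells, a log2 change of -0.65 ± 0.08 (adjusted p = 0.00781). MLLT3 (chr9:20341669-20622499, minus strand) stood at 570.5 and 546 CPM in the controls of the AF9 experiment and at 111 and 94.4 CPM in AF9 KD cells, a log2 change of -2.44 ± 0.18 (adjusted p = 0.000573). The groups did not overlap in either case, so the libraries matched their labels, and the mRNA of the target was reduced further in AF9 KD than in MLL1 KD. KMT2A also stood lower in AF9 KD cells, at 385 and 380.1 CPM against 494 and 471 CPM in their controls, a change of -0.34 ± 0.10 that did not reach 1.5-fold. The difference between both effects on KMT2A was 0.32 ± 0.12 (adjusted p = 0.225, 0.0419 with the block) and was not called. For MLLT3 the difference was -2.16 ± 0.22 (adjusted p = 0.00693), since its change in MLL1 KD cells was -0.28 ± 0.14 and its libraries there overlapped.

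In both fits more genes were called in AF9 KD cells than in MLL1 KD cells. Most genes called in 1 knockdown were not called in the other. In MLL1 KD cells 52 genes rose (0.408% of those tested) and 81 fell (0.636%), and in AF9 KD cells 189 rose (1.48%) and 177 fell (1.39%). The difference was called for 73 genes that stood higher (0.573%) and 100 that stood lower (0.786%) in AF9 KD than in MLL1 KD, relative to their controls. With the replicate block these counts were 305 (2.4%), 381 (2.99%), 942 (7.4%), 668 (5.25%), 1038 (8.15%) and 885 (6.95%). The order of the knockdowns reversed when the trend of each library with transcript GC content was removed by offsets, with no block. There 15 genes rose and 55 fell in AF9 KD, against 73 and 109 in MLL1 KD. Without the block it also reversed when any single AF9 library was left out. Without the block every library moved the 2 counts of the difference by more than 1.5 times when it was left out. They were 423 and 510 without replicate 1 of MLL1 KD, 26 and 44 without control replicate 1 of the MLL1 experiment, at most 10 and 11 without any of the other 8 libraries, and 0 and 1 without control replicate 1 of the AF9 experiment. With the block they were 452 and 528 without control replicate 1 of the AF9 experiment, and 728 to 1151 and 717 to 922 without any other library. The 34 genes named below for a difference kept its sign in each of these 10 fits with the block. They were chosen from these same libraries by their calls and the size of the difference. They also include MLLT3, the target of the AF9 hairpin. Their stability here is therefore no independent support.

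Genes called in both knockdowns numbered 23, which were 17.3% of the 133 called in MLL1 KD and 6.28% of the 366 called in AF9 KD. Of these, 17 moved in the same direction and 6 in opposite directions. With the block 150 were called in both (21.9% of 686 and 9.32% of 1610), 100 in the same direction and 50 in opposite directions. In both fits these shares were above those of all 12730 genes. Of these, 366 were called in AF9 KD and 133 in MLL1 KD (1610 and 686 with the block). Over all 12730 genes, Pearson's r between both log2 changes was 0.087 and Spearman's rho 0.085; genes are not independent of each other. The plot of both effects shows this as a cloud without a tilt.

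**Figure D1:**
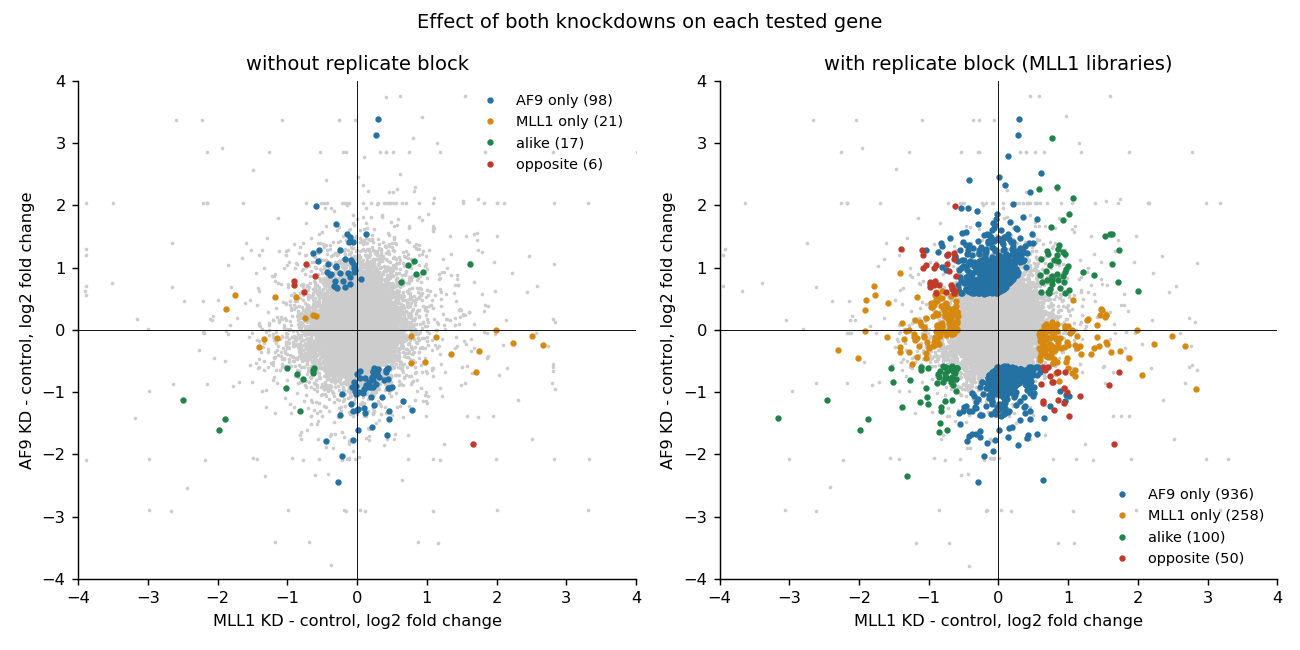
Log2 fold change in AF9 KD cells against their controls (vertical axis) plotted against that in MLL1 KD cells (horizontal axis) for each of the 12730 genes, without (left) and with (right) the replicate block. Colors mark 4 classes: opposite (6 and 50 genes), AF9 KD alone (98 and 936), MLL1 KD alone (21 and 258) and alike (17 and 100), and 11 and 14 genes beyond a log2 value of 4 lie outside the axes.

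Of the 6 genes that moved oppositely, 5 fell in MLL1 KD and rose in AF9 KD cells, and 1 did the reverse. The one that rose in MLL1 KD and fell in AF9 KD was CD24 (chr6:106969831-106975627, minus strand), which encodes a surface glycoprotein of progenitor and B cells, and it had the largest difference of the genes that moved oppositely in either fit. CD24 stood at 15.4, 19.3 and 17.6 CPM in control cells and 63, 51.4 and 49.9 CPM in MLL1 KD cells, and at 59.8 and 67.8 CPM in the controls of the AF9 experiment and 16.8 and 18.9 CPM in AF9 KD cells. The groups of each experiment were far apart, and the control levels of one experiment resembled the KD levels of the other. CD24 rose by 1.65 ± 0.15 in MLL1 KD (adjusted p = 0.00163), changed by -1.84 ± 0.18 in AF9 KD (adjusted p = 0.00165) and differed by -3.49 ± 0.23 (adjusted p = 0.000377, higher in 3 of 3 MLL1 KD and lower in 2 of 2 AF9 KD libraries). It was the 1 gene of all 34 named with a difference that was called without each of the 10 libraries in turn even without the block. CD24 has near-identical processed copies in the genome, and how reads shared with them were counted is not given in the sources used here.

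SELENBP1 (chr1:151364304-151372707, minus strand), a methanethiol oxidase abundant in erythroid cells, and SPTB (chr14:64746283-64879907, minus strand), the beta spectrin of the red cell membrane skeleton, moved the other way. SELENBP1 was at 182, 199 and 175 CPM in controls and 83.05, 112 and 102 CPM in MLL1 KD cells. SELENBP1 was at 185 and 197 CPM in the controls of the AF9 experiment and 316 and 339 CPM in AF9 KD cells. SPTB was at 138, 158 and 165 CPM and 66.8, 88.1 and 90.5 CPM in the MLL1 experiment, and at 119.5 and 141 CPM and 221 and 209 CPM in the AF9 experiment, controls first. Both genes started from like control levels in the 2 experiments, and no KD library overlapped its controls. SELENBP1 changed by -0.91 ± 0.12 in MLL1 KD and 0.78 ± 0.15 in AF9 KD, and SPTB by -0.91 ± 0.14 and 0.72 ± 0.17. The difference was 1.68 ± 0.19 for SELENBP1 (adjusted p = 0.0104) and 1.64 ± 0.22 for SPTB (adjusted p = 0.0149).

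The other 3 were UNC5B, a netrin receptor (chr10:71212570-71302864, plus strand), RIPOR1 (chr16:67518418-67546788, plus strand), and TMEM94, a transmembrane protein (chr17:75441159-75500452, plus strand). Their control levels differed between the experiments: UNC5B was at 78.3, 72.4 and 75.2 CPM in the controls of the MLL1 experiment and at 5.07 and 6.17 CPM in those of the AF9 experiment. UNC5B fell to 37.8, 52.4 and 45.9 CPM in MLL1 KD cells and rose to 12.2 and 11.2 CPM in AF9 KD cells, with a difference of 1.79 ± 0.24 (adjusted p = 0.0149). RIPOR1 went from 149, 148 and 153 to 96.4, 93.4 and 106 CPM in MLL1 KD and from 39.9 and 48.3 to 74.5 and 86.1 CPM in AF9 KD (difference 1.47 ± 0.18, adjusted p = 0.0109). TMEM94 went from 140.0, 128 and 132 to 81.1, 75.9 and 79.4 CPM and from 38.2 and 45.5 to 58.1 and 70.01 CPM (difference 1.37 ± 0.18, adjusted p = 0.0149). In these 3 genes the opposite moves brought the experiments closer, since the level was higher in the MLL1 experiment from the start.

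With the replicate block 50 genes moved oppositely, 28 of which rose and 22 of which fell in AF9 KD cells, and all 6 above were among them. Those that fell in AF9 KD included EPSTI1, an interferon-inducible gene, MYCT1, a target gene of MYC, CLEC2B, a C-type lectin, TMEM170B and SORBS2, an adaptor of the actin cytoskeleton. EPSTI1 was at 10.8, 14.3 and 16.6 CPM in controls and 19.8, 27.3 and 25.1 CPM in MLL1 KD cells. EPSTI1 was at 33.9 and 34.2 CPM in the controls of the AF9 experiment and 13.7 and 14.1 CPM in AF9 KD cells. Its difference without the block was -2.08 ± 0.29 (adjusted p = 0.0199). MYCT1 was at 39.1, 44.6 and 55.2 CPM and 62.1, 133 and 129 CPM in the MLL1 experiment, controls first. It was at 82.6 and 73.5 CPM and 34.3 and 40.4 CPM in the AF9 experiment. Its difference without the block was -2.28 ± 0.41 (adjusted p = 0.0389). Replicate 1 of MLL1 KD was the lowest of its group in both genes and in CLEC2B, but in all 3 it lay above every control of its experiment. The differences of CLEC2B (-2.37 ± 0.43, adjusted p = 0.0389) and TMEM170B (-1.98 ± 0.35, adjusted p = 0.0382) were called in both fits too. These values are from the fit without the block. The difference of SORBS2 (-1.95 ± 0.41 without the block) had an adjusted p of 0.0546 without and 0.000337 with the block. OPLAH, which encodes 5-oxoprolinase, rose in AF9 KD and fell in MLL1 KD with the block only (difference 2.70 ± 0.56, adjusted p = 0.0024), and its levels did not exceed 7.21 CPM in any library.

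**Figure D2:**
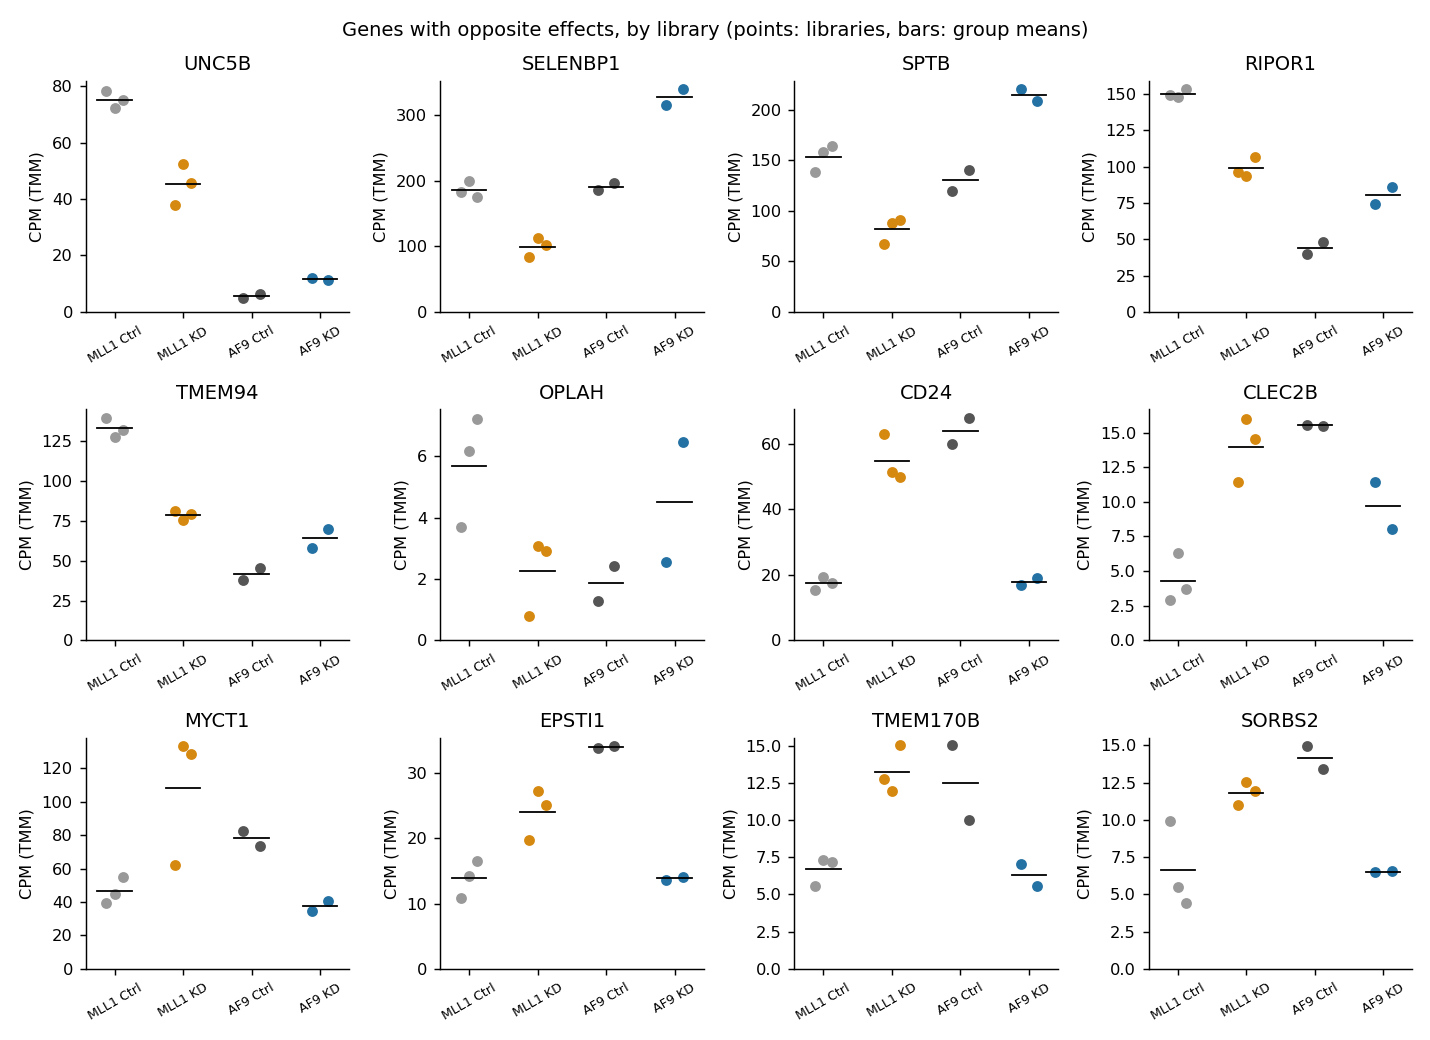
CPM (vertical axis, from 0) of the 12 genes named for opposite effects in each of the 10 libraries, by group, with points for libraries and bars for group means. In each panel the step from control to MLL1 KD and the step from control to AF9 KD point in opposite directions, and for CD24 the means go from 17.4 to 54.8 CPM and from 63.8 to 17.8 CPM.

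A further set of 98 genes moved in AF9 KD alone, meaning that the AF9 change and the difference were called with the same sign and the MLL1 change was not called. Of these 37 rose and 61 fell, against 189 rises and 177 falls among all calls in AF9 KD. That a gene was not called in MLL1 KD does not show that it did not change there: in 66 of the 98 the 95% interval of the MLL1 change lay within 1.5-fold in either direction, and in 32 it did not. With the block the class held 936 genes (545 rose, 391 fell), and the interval lay within 1.5-fold in 691 of them. The MLL1 change had the opposite sign in 79 of the 98 and in 612 of the 936. The call of the difference favors such genes.

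The largest differences among the genes that rose belonged to ST8SIA1, the sialyltransferase that makes ganglioside GD3, and LGALS3BP, a secreted galectin-binding glycoprotein. ST8SIA1 (chr12:22063773-22437041, minus strand) was at 0.68 and 0.956 CPM in control cells and 10.3 and 6.95 CPM in AF9 KD cells. ST8SIA1 was at 5.85, 8.39 and 10.5 CPM in the controls of the MLL1 experiment and 7.37, 11.1 and 11.9 CPM in MLL1 KD cells. LGALS3BP (chr17:78971238-78979947, minus strand) was at 0.378 and 0.608 CPM in controls and 4 and 4.73 CPM in AF9 KD cells. LGALS3BP was at 31.6, 20.2 and 20.9 CPM in the controls of the MLL1 experiment and 33.02, 25.4 and 29.2 CPM in MLL1 KD cells. In both genes the MLL1 groups overlapped and the AF9 groups did not, and the controls of the AF9 experiment were below 1 CPM. The differences were 3.10 ± 0.51 (adjusted p = 0.0343) and 2.86 ± 0.44 (adjusted p = 0.028). STUM (chr1:226548764-226609230, plus strand) was better supported, with 45.8 and 42.9 CPM in controls, 136 and 152 CPM in AF9 KD cells, 183, 158 and 149.6 CPM in the other controls and 142, 123 and 134 CPM in MLL1 KD cells (difference 2.00 ± 0.18, adjusted p = 0.00387, called in 9 of 10 fits that left out a library). EXOC3L2 (difference 2.58 ± 0.38), PDLIM2 (1.86 ± 0.30) and LLGL2, a cell polarity gene (1.84 ± 0.35), rose in AF9 KD too. Their MLL1 changes of -0.59 ± 0.20, -0.63 ± 0.18 and -0.55 ± 0.22 were not called. They too were low in the controls of the AF9 experiment, at 0.907 and 1.13, 2.95 and 2.70, and 2.72 and 2.00 CPM. Their means in the controls of the MLL1 experiment were 33.1, 29.6 and 6.77 CPM. With the block the falls of EXOC3L2 and PDLIM2 in MLL1 KD cells were called, and both genes were then among those that moved oppositely.

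Among the genes that fell in AF9 KD alone were IL1RL1, the receptor of IL-33 on mast cells and eosinophils, and CPA3, a carboxypeptidase of mast cell granules. IL1RL1 (chr2:102311502-102352037, plus strand) was at 34.9 and 36.7 CPM in controls and 9.68 and 12.5 CPM in AF9 KD cells. IL1RL1 was at 23.6, 24.8 and 27.2 CPM in the controls of the MLL1 experiment and 28.2, 33.9 and 40.1 CPM in MLL1 KD cells. CPA3 (chr3:148865296-148897203, plus strand) was at 273 and 229.9 CPM in controls and 59.3 and 64.6 CPM in AF9 KD cells. CPA3 was at 9.79, 11.8 and 9.997 CPM in the controls of the MLL1 experiment and 9.34, 8.57 and 9.24 CPM in MLL1 KD cells. The 2 AF9 KD libraries were the lowest of the AF9 experiment in both genes, while CPA3 was over 20-fold less abundant in the controls of the MLL1 experiment than in those of the AF9 experiment. The differences were -2.12 ± 0.26 (adjusted p = 0.0109) and -1.81 ± 0.20 (adjusted p = 0.00835). The ETS factor ELK3 (difference -1.80 ± 0.27, adjusted p = 0.0278) and the long noncoding RNA MIR3681HG (-1.89 ± 0.30, adjusted p = 0.031) fell as well, and with the block the rise of ELK3 in MLL1 KD cells (0.64 ± 0.14) was called.

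Movement in MLL1 KD alone was found for 21 genes, 11 that rose and 10 that fell (258 with the block, 120 and 138). The 95% interval of the AF9 change lay within 1.5-fold in 7 of the 21 and in 140 of the 258. Its sign was opposite to that of the MLL1 change in 18 of the 21 and in 179 of the 258. SMC1A, a subunit of the cohesin ring, and ESYT1, an extended synaptotagmin that tethers the endoplasmic reticulum to the plasma membrane, were the most abundant of those named that fell. SMC1A (chrX:53374149-53422728, minus strand) fell from 311, 265 and 253 CPM in controls to 118, 96.8 and 95.8 CPM in MLL1 KD cells, and it was at 340.5 and 335 CPM in controls and 283 and 278 CPM in AF9 KD cells. ESYT1 (chr12:56118250-56144674, plus strand) fell from 413, 438 and 439.9 CPM to 139, 185 and 185 CPM in MLL1 KD cells, and it was at 616 and 594 CPM in controls and 540.3 and 559 CPM in AF9 KD cells. The MLL1 KD libraries lay far below their controls and the AF9 KD libraries a little below theirs, and the differences were 1.14 ± 0.19 (adjusted p = 0.0324) and 1.20 ± 0.19 (adjusted p = 0.028). In AF9 KD cells SMC1A changed by -0.27 ± 0.14 and ESYT1 by -0.14 ± 0.14.

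ALAS2, the first enzyme of heme synthesis in erythroid cells, fell in MLL1 KD cells. ALAS2 (chrX:55009055-55030977, minus strand) was at 31.8, 39.6 and 32.8 CPM in controls and 6.29, 11.7 and 13.1 CPM in MLL1 KD cells. ALAS2 was at 172 and 172 CPM in the controls of the AF9 experiment and 246 and 263 CPM in AF9 KD cells. ALAS2 was thus higher in both AF9 KD libraries, a change of 0.57 ± 0.25 that was not called, and the difference was 2.32 ± 0.33 (adjusted p = 0.0221). SLC6A8, the creatine transporter (difference 2.21 ± 0.39), B3GNT5, which starts the lacto series of glycosphingolipids (1.70 ± 0.29), and AGFG2 (1.41 ± 0.28) fell in MLL1 KD alone too, with AF9 KD libraries above their controls and adjusted p-values of 0.0389, 0.0353 and 0.0458.

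Genes that rose in MLL1 KD alone included GFI1, a transcriptional repressor of hematopoiesis, ENC1, an actin-binding kelch protein, and CD48, a surface receptor of the SLAM family. GFI1 (chr1:92473043-92486925, minus strand) was at 0.762, 1.79 and 1.39 CPM in controls and 6.29, 8.15 and 10.6 CPM in MLL1 KD cells. GFI1 was at 7.86 and 4.69 CPM in the controls of the AF9 experiment and 4.96 and 5.65 CPM in AF9 KD cells. ENC1 (chr5:74627406-74641424, minus strand) was at 31.01, 28.1 and 26.8 CPM in controls and 97.4, 94.3 and 96.8 CPM in MLL1 KD cells. ENC1 was at 89.9 and 72.6 CPM in the controls of the AF9 experiment and 71.8 and 57.03 CPM in AF9 KD cells. CD48 (chr1:160678746-160711831, minus strand) was at 4.83, 3.85 and 5.95 CPM and 16.5, 21.5 and 20.3 CPM in the MLL1 experiment, controls first. It was at 2.50 and 2.43 CPM and 2.64 and 2.29 CPM in the AF9 experiment. For GFI1 and ENC1 the MLL1 KD libraries reached or passed the levels of the AF9 experiment, whereas CD48 was low in all 4 libraries of that experiment. The differences were -2.91 ± 0.52 (adjusted p = 0.0389), -2.08 ± 0.21 (adjusted p = 0.00657) and -1.99 ± 0.36 (adjusted p = 0.0389). VEPH1 (-2.46 ± 0.39, adjusted p = 0.0294) and C2orf66 (-2.60 ± 0.53, adjusted p = 0.0485) rose likewise, and C2orf66 did not exceed 6.20 CPM in any library.

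The genes that moved alike numbered 17, of which 6 rose and 11 fell in both knockdowns (100 with the block, 49 and 51). PRG2, the major basic protein of eosinophil granules, was the most abundant of those named for the size of their changes. It went from 259.5, 210.1 and 195 CPM to 66.2, 47.9 and 53.5 CPM in MLL1 KD cells and from 598 and 749 CPM to 157 and 285 CPM in AF9 KD cells, and the difference was 0.38 ± 0.35 (95% interval -0.39 to 1.15). HEMGN, a nuclear protein of hematopoietic cells, went from 90.99, 105 and 96.05 CPM to 34.99, 54.2 and 54.7 CPM in MLL1 KD and from 394 and 374 CPM to 232 and 172 CPM in AF9 KD (difference 0.10 ± 0.28, interval -0.52 to 0.72). CALB2, the calcium-binding protein calretinin, and RHOC, a small GTPase, fell as well, with differences of 0.46 ± 0.42 (interval -0.46 to 1.39) and -0.01 ± 0.20 (interval -0.46 to 0.44). For RHOC the interval excludes a difference of 1.5-fold, and for PRG2 and CALB2 it does not.

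PIK3R2, a regulatory subunit of PI3 kinase, rose by 0.95 ± 0.11 in MLL1 KD and 0.93 ± 0.14 in AF9 KD, with a difference of -0.02 ± 0.19 (interval -0.43 to 0.40). PTPRF, a receptor tyrosine phosphatase, rose by 0.84 ± 0.12 and 0.90 ± 0.14 (interval of the difference -0.35 to 0.47), and ADGRL1, an adhesion receptor, by 0.63 ± 0.12 and 0.77 ± 0.15 (interval -0.28 to 0.56). GNG12, a G protein gamma subunit, rose by 1.62 ± 0.19 and 1.06 ± 0.23, SLC45A4 by 0.73 ± 0.14 and 1.04 ± 0.18, and PLEKHB2 fell (-0.82 ± 0.14 and -1.30 ± 0.17). Of the 17 genes, 7 had an interval of the difference within 1.5-fold in either direction. With the block 26 of the 100 had such an interval and 8 were called in the difference, so those 8 moved in 1 direction but not by the same amount. SLC2A14, a glucose transporter gene, was one of them, with -2.50 ± 0.38 in MLL1 KD and -1.13 ± 0.26 in AF9 KD. The adjusted p of its difference was 0.167 (0.0167 with the block). The MLL1 change rests on few reads, with 5, 7 and 3 counts in MLL1 KD and 17, 31 and 27 in the controls. In the AF9 experiment the controls of SLC2A14 stood at 64.8 and 62.1 CPM. SLC2A14 is near-identical to SLC2A3, so its counts are uncertain where reads fit both.

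**Figure D3:**
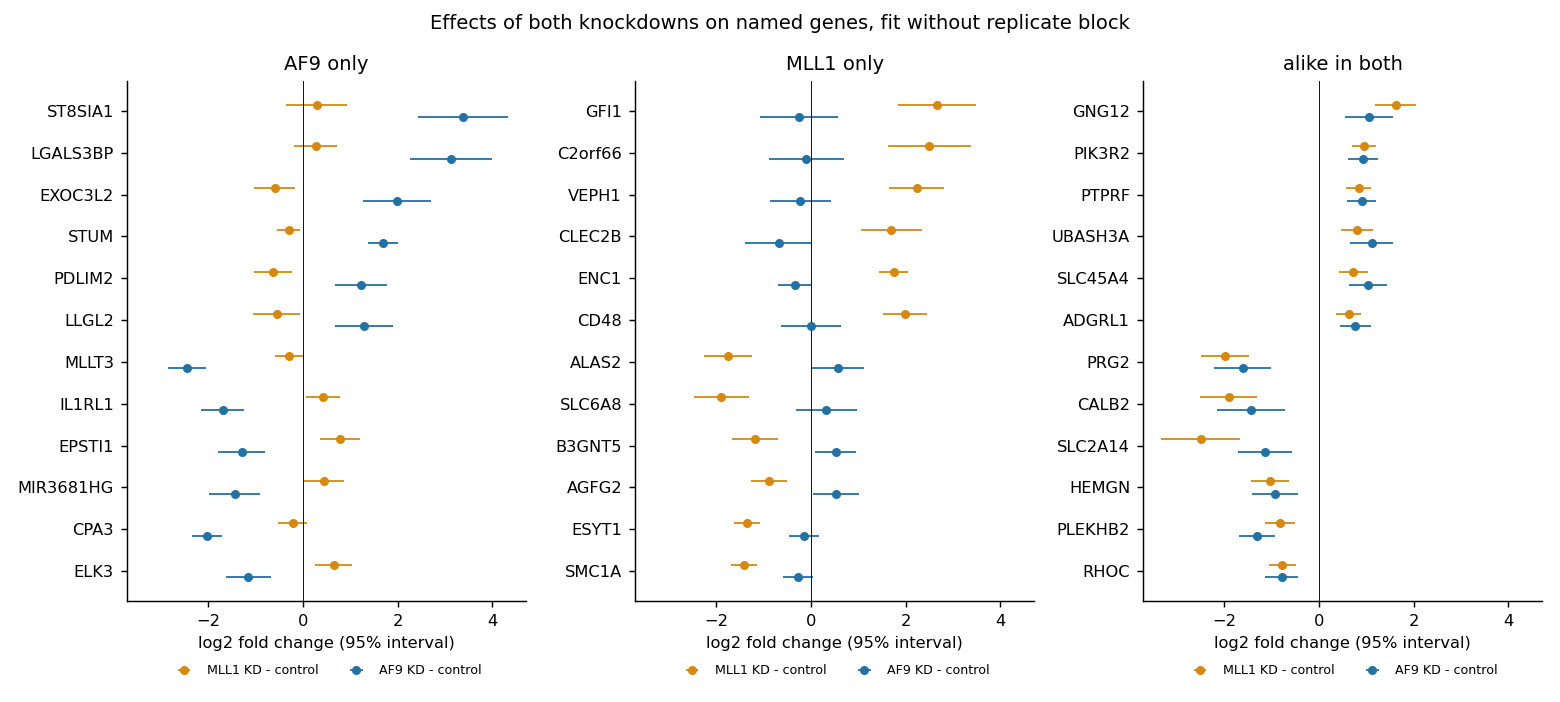
Log2 fold change with its 95% interval (horizontal axis) of MLL1 KD (orange) and AF9 KD (blue) against their controls for the 12 genes named in each of 3 classes, from the fit without the replicate block. In the left and middle panels the intervals of both knockdowns are apart, as for STUM (-0.30 and 1.70) and SMC1A (-1.41 and -0.27). The change that was not called is not always near 0: for STUM in MLL1 KD its interval is -0.55 to -0.05. In the right panel both lie on the same side of 0.

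Among genes that the study names, GLUL, which encodes glutamine synthetase, and UBASH3A moved alike. GLUL went from 1060.0, 832 and 875 CPM to 441, 544 and 531 CPM in MLL1 KD and from 1471 and 1580.0 CPM to 869 and 1001 CPM in AF9 KD (difference 0.16 ± 0.20, interval -0.28 to 0.60). UBASH3A, a regulator of T cell receptor signaling, went from 72.4, 64.7 and 70.9 CPM to 94.2, 137 and 133 CPM and from 6.80 and 7.65 CPM to 14.96 and 16.3 CPM (difference 0.31 ± 0.25, interval -0.26 to 0.87). TSPAN32, a tetraspanin of hematopoietic cells, differed by 1.09 ± 0.37 (adjusted p = 0.169, 0.00123 with the block) and rose in AF9 KD alone with the block. ANXA1, which encodes annexin A1, differed by -1.65 ± 0.60 (adjusted p = 0.197), and with the block it rose in MLL1 KD and fell in AF9 KD (adjusted p of the difference = 6.31e-05). Its control replicate 1 of the MLL1 experiment was at 9.53 CPM and the other controls there at 20.6 and 19.1 CPM, and its MLL1 KD libraries stood at 14.8, 42.4 and 40.6 CPM, so that the groups overlapped although each KD library lay above the control of its number. MEIS1, a homeobox partner of HOXA proteins, fell in MLL1 KD (-0.79 ± 0.13, adjusted p = 0.0248), and its change of -0.51 ± 0.16 in AF9 KD was not called, but the difference of 0.29 ± 0.21 (interval -0.17 to 0.75) was not called either. The differences of GATA2 (0.51 ± 0.39), MYC (0.03 ± 0.14), CDK9 (0.33 ± 0.27), POLR2A (-0.05 ± 0.23), TBP (-0.30 ± 0.25) and MLLT1 (0.22 ± 0.18) were not called in either fit; that of GATA2 had an adjusted p of 0.0128 with the block but did not reach 1.5-fold. HOXA9 was not tested, since it had at most 5 counts in any library.

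Surface proteins of progenitor and leukemia cells held 3 genes that moved oppositely, all higher in MLL1 KD and lower in AF9 KD. They were 3 of the 10 tested, against 50 of all 12730, from the fit with the block. With GC content offsets as well, these 3 were still lower in the difference, but 1 of the 10 fell in AF9 KD and CD24 alone was still opposite. Without the block CD24 was the 1 opposite gene, and 2 in place of 3 fell in AF9 KD in 4 of the 10 fits with the block that left out a library. CD24 was described above, and the other two were CD34, a marker of hematopoietic stem and progenitor cells, and CD44, the receptor of hyaluronan. CD44 was at 135, 88.2 and 79.7 CPM in controls and 233, 147 and 160.1 CPM in MLL1 KD cells. CD44 was at 101 and 96.7 CPM in the controls of the AF9 experiment and 60.1 and 64.05 CPM in AF9 KD cells. CD34 was at 9.91, 3.72 and 1.39 CPM in controls and 22.7, 9.41 and 9.89 CPM in MLL1 KD cells. CD34 was at 5.75 and 8.87 CPM in the controls of the AF9 experiment and 3.76 and 4.12 CPM in AF9 KD cells. Every MLL1 KD library lay above the control of its own number, but replicate 1 was the highest of both groups and the CD34 groups overlapped. The differences were -1.52 ± 0.14 for CD44 (adjusted p = 1.13e-06) and -2.47 ± 0.40 for CD34 (adjusted p = 0.000272), and without the block they were not called (adjusted p = 0.0654 and 0.212). ENG, a TGF-beta coreceptor, fell in MLL1 KD alone (-0.82 ± 0.09, difference 0.85 ± 0.15).

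In the fit with the block, erythroid genes that moved in MLL1 KD fell, and more of those that moved in AF9 KD rose than fell. Of 30 tested, 0 rose and 8 fell in MLL1 KD (2.99% of all genes fell). In AF9 KD 6 rose and 3 fell (7.4% and 5.25% of all genes), and 2 of the 30 fell alike in both knockdowns. In the difference 11 were higher and 0 lower with the block (8.15% of all genes were higher), against 2 and 0 without it (0.573%). At an unadjusted p under 0.05, edgeR's test gave 13 higher and 6 lower with the block and 10 and 1 without it, and DESeq2 called 7 and 0. The 8 falls in MLL1 KD were 4 without either library of MLL1 replicate 2. The list's median change was -0.182 in MLL1 KD and 0.087 in AF9 KD. With GC content offsets and the block 4 rose and 3 fell in AF9 KD, with a median of -0.032. With the offsets and no block 0 rose and 0 fell there. Members higher in the difference included SPTB, the alpha globin genes HBA1 and HBA2, the zeta globin gene HBZ, BLVRB, a biliverdin reductase, and ZFPM1, the cofactor FOG1 of GATA1. HBA1 was at 400.2, 223 and 226 CPM in controls and 339, 117 and 131 CPM in MLL1 KD cells. HBA1 was at 75.01 and 119.7 CPM in the controls of the AF9 experiment and 242 and 185 CPM in AF9 KD cells (difference 1.77 ± 0.23, adjusted p = 5.05e-05). Replicate 1 of MLL1 KD lay above the controls of replicates 2 and 3 in HBA1, and each KD library lay below the control of its number. HBA2 moved oppositely too (difference 1.94 ± 0.26), but the 2 genes are near-identical and can share reads. BLVRB was at 52.4, 54.8 and 58.1 CPM and 29.7, 43.1 and 46.3 CPM in the MLL1 experiment, controls first. It was at 110.0 and 129 CPM and 199 and 204 CPM in the AF9 experiment (difference 1.25 ± 0.16, adjusted p = 4.97e-05, 0.0485 without the block). HBE1, the epsilon globin gene, fell in MLL1 KD alone (-1.29 ± 0.11), from a mean of 93.7 CPM in controls, against 1922 CPM in the controls of the AF9 experiment. Summed over the list, erythroid genes amounted to 5930 to 6185 CPM in the controls of the MLL1 experiment and 5601 to 5727 CPM in MLL1 KD cells, and to 17100.0 to 17160.0 CPM in the controls of the AF9 experiment and 12720.0 to 15410.0 CPM in AF9 KD cells. The KD libraries thus had lower sums than their controls in both experiments. The starting sums differed between the experiments, and the part of this in the result was not tested. Of the heme synthesis genes, ALAD, which makes porphobilinogen, was higher in the difference with the block (0.76 ± 0.19), as was ALAS2.

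Of the listed mast cell and eosinophil genes, 9 of 14 fell in AF9 KD with the block (5.25% of all genes). Without it 2 fell (1.39%). In MLL1 KD 3 fell with the block (2.99%) and 2 without it (0.636%), and in the difference 6 were lower with the block (6.95%) and 1 without it (0.786%). In the fit with the block the counts were 4 in AF9 KD and 3 in the difference without control replicate 1 of the AF9 experiment, and 5 fell in AF9 KD without its KD replicate 1. The 3 that fell in MLL1 KD were PRG2 and the tryptase genes TPSAB1 and TPSB2, and these fell alike in AF9 KD. How reads that fit both tryptase genes were counted is not given in the sources used here. These 2 genes may thus not be separate falls in the counts above. Those that moved in AF9 KD alone were CPA3, KIT, the receptor of stem cell factor, MS4A3, HPGDS, a prostaglandin D synthase, and SRGN, the proteoglycan serglycin. KIT was at 861 and 579.6 CPM in controls and 287 and 446 CPM in AF9 KD cells. KIT was at 83.9, 68.4 and 56.4 CPM in the controls of the MLL1 experiment and 90.9, 53.96 and 51.4 CPM in MLL1 KD cells (difference -0.86 ± 0.23, adjusted p = 0.0122). MS4A3 was at 1571 and 1572 CPM in controls and 889 and 1077 CPM in AF9 KD cells. MS4A3 was at 154, 315 and 309 CPM in the controls of the MLL1 experiment and 128, 364 and 318 CPM in MLL1 KD cells (difference -0.68 ± 0.14, adjusted p = 0.0024). In both genes the AF9 groups were apart and the MLL1 groups overlapped. The list's median change was -0.829 in AF9 KD and -0.056 in MLL1 KD, and the listed genes summed to 5448 to 5650 CPM in the controls of the AF9 experiment and 3118 to 3876 CPM in AF9 KD cells, against 2809 to 3346 CPM and 2159 to 3002 CPM in the MLL1 experiment. In bulk RNA fewer expressing cells and less RNA per cell cannot be told apart.

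Of 23 sterol synthesis genes, 11 fell in AF9 KD with the block (5.25% of all genes) and 2 in MLL1 KD (2.99%), and 10 were lower in the difference (6.95%). However, without the block 1 fell in AF9 KD and 0 were lower in the difference (edgeR, 4 at an unadjusted p under 0.05, and 1 called by DESeq2). MSMO1, a methylsterol monooxygenase, was at 185 and 174 CPM in controls and 51.5 and 56.8 CPM in AF9 KD cells. MSMO1 was at 30.6, 8.67 and 6.83 CPM in the controls of the MLL1 experiment and 32.3, 8.99 and 8.60 CPM in MLL1 KD cells, so that both libraries of replicate 1 stood well above the others. The difference of MSMO1 was -1.86 ± 0.17 (adjusted p = 1.33e-06, 0.34 without the block), that of IDI1, isopentenyl diphosphate isomerase, was -1.45 ± 0.14 (adjusted p = 3.79e-06), and that of FDFT1, squalene synthase, was -1.09 ± 0.12 (adjusted p = 1.11e-05). HMGCS1, the HMG-CoA synthase, fell alike in both (-0.82 ± 0.13 and -1.24 ± 0.12).

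Among cell cycle genes, the few that passed the test in the difference were higher for DNA replication and lower for mitosis. Of 34 replication genes 9 were higher (8.15% of all genes) and 0 lower with the block. At an unadjusted p under 0.05 these were 20 and 1, against 2206 and 2236 of all 12730 genes. In the same fit 0 were called in MLL1 KD (18 fell at an unadjusted p under 0.05) and 1 rose and 1 fell in AF9 KD. Without the block 1 was higher, and DESeq2 called 4. Their median was -0.231 in MLL1 KD, 0.171 in AF9 KD and 0.436 in the difference. MCM5, a subunit of the replicative helicase, was at 386, 259 and 267 CPM in controls and 286, 192 and 188 CPM in MLL1 KD cells. MCM5 was at 151 and 177 CPM in the controls of the AF9 experiment and 234 and 216 CPM in AF9 KD cells (difference 0.91 ± 0.13, adjusted p = 9.41e-05). MCM4 (0.77 ± 0.12), MCM3 (0.70 ± 0.11) and TK1, thymidine kinase (0.82 ± 0.14), were called too, and POLD1, the catalytic subunit of DNA polymerase delta, was called in both fits (adjusted p = 0.0458 without the block). Of 26 mitosis genes 7 were lower in the difference with the block (6.95% of all genes) and 0 without it (8 at an unadjusted p under 0.05, and 3 called by DESeq2), with medians of 0.051 in MLL1 KD and -0.424 in AF9 KD. CDK1, the mitotic kinase, was at 390.3 and 384 CPM in controls and 246 and 197 CPM in AF9 KD cells. CDK1 was at 57.3, 67.6 and 73.5 CPM in the controls of the MLL1 experiment and 48.5, 67.02 and 68.1 CPM in MLL1 KD cells (difference -0.68 ± 0.14, adjusted p = 0.0027), and TTK, TOP2A and CCNA2 were lower as well. The count of 7 was 1 without replicate 2 of AF9 KD, 13 without its replicate 1, 11 and 12 without the control and KD libraries of MLL1 replicate 1, and 4 without either library of MLL1 replicate 3, while that of the replication genes ran from 7 to 10.

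In the lists that follow, counts without a named fit are from the fit with the block, in which 7.4% of all genes rose and 5.25% fell in AF9 KD and 8.15% were higher and 6.95% lower in the difference. Without the block at most 2 genes of any of these lists were called in either direction of the difference. In the super elongation and DOT1L complexes 3 of 15 genes fell in AF9 KD: EAF1, EAF2 and MLLT3, the target of the AF9 hairpin. The fall of MLLT3 was set by the design and is no result about the list. EAF1, which binds ELL proteins, differed by -0.84 ± 0.17 (adjusted p = 0.0458, values without the block). Of 20 genes of COMPASS-like complexes, KMT2C was lower in the difference (-0.86 ± 0.15, adjusted p = 0.0353, values without the block). With the block MEN1, which encodes menin, was higher in the difference (0.73 ± 0.14). TAF13, a TFIID subunit, rose in MLL1 KD and fell in AF9 KD with the block (-1.62 ± 0.34), and TAF7 rose and GTF2B fell in MLL1 KD alone, among 27 genes of the preinitiation complex. In ribosome biogenesis 8 of 37 genes rose in AF9 KD, with MYBBP1A (1.28 ± 0.15) and BOP1 (1.08 ± 0.16) among the 5 higher in the difference. The rises were 4 without control replicate 1 of the AF9 experiment, 3 with GC content offsets and 0 without the block (edgeR, 1 at an unadjusted p under 0.05, and 1 called by DESeq2). The 5 became 9 and 8 without the control and KD libraries of MLL1 replicate 1, 3 without replicate 2 of MLL1 KD and 2 with GC content offsets. Of 9 collagen and matrix genes 4 rose in AF9 KD alone, namely HSPG2, COL18A1, LAMA5 and AGRN. HSPG2, the basement membrane proteoglycan perlecan, was called in both fits (1.36 ± 0.20, adjusted p = 0.0236, values without the block). Of these 9 genes 2 rose in AF9 KD and 3 were higher in the difference with GC content offsets and the block. With the offsets and no block these counts were 0 and 0. In glycolysis and the hypoxia response 5 of 26 were higher and 2 lower: PKM, pyruvate kinase, fell in MLL1 KD alone (-0.88 ± 0.09), SLC2A3, a glucose transporter, fell in AF9 KD alone (-1.20 ± 0.10), and PFKL, a phosphofructokinase, rose in AF9 KD alone (0.91 ± 0.11). In the ATF4 stress response 7 of 18 fell and 1 rose in AF9 KD and 3 fell in MLL1 KD, among them DDIT4 (-1.12 ± 0.34 in MLL1 KD and -1.16 ± 0.42 in AF9 KD) and CHAC1 (-0.84 ± 0.23 and -1.49 ± 0.41), which moved alike. The 7 falls were 2 without control replicate 2 or KD replicate 1 of the AF9 experiment, and 0 without the block (edgeR, 2 at an unadjusted p under 0.05, and 0 called by DESeq2). The 3 falls in MLL1 KD (2.99% of all genes) were 1 without either library of MLL1 replicate 1 and 5 without either library of MLL1 replicate 3. Megakaryocyte and platelet genes moved both ways (1 higher and 4 lower of 20), with FLI1, an ETS factor of that lineage, lower in the difference (-1.03 ± 0.11, adjusted p = 1.17e-05). Of 80 cytoplasmic ribosomal protein genes 2 were higher and 1 lower in the difference and of 66 nuclear subunits of the respiratory chain 4 and 4, shares below those of all genes. Of 26 interferon-stimulated genes 1 was higher and 5 were lower, of 17 genes of MHC class I antigen presentation 2 and 2, of 11 immediate early genes 2 and 2, of 12 HOXA and TALE genes 0 and 2, of 14 cohesin genes 1 (SMC1A) and 0, of 4 neutrophil and monocyte genes 1 and 0, and of 4 lymphoid markers 0 and 1.

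**Figure D4:**
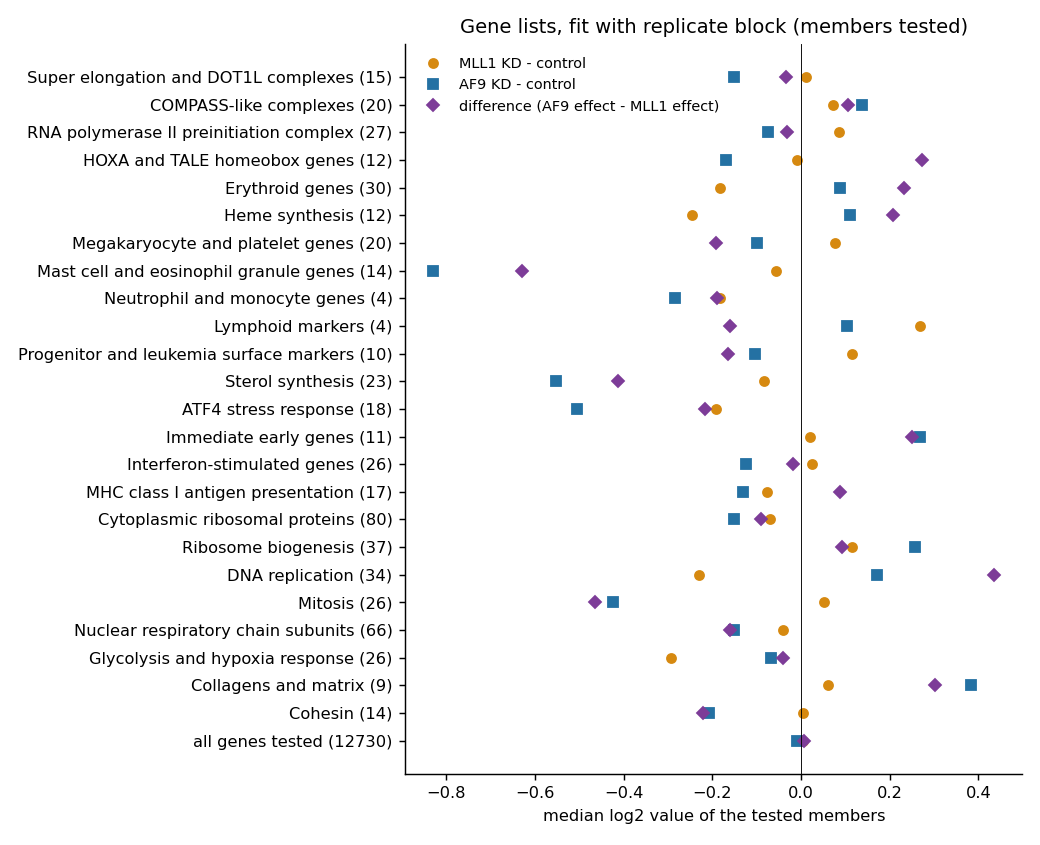
Median log2 value of the tested members of each gene list (horizontal axis) for MLL1 KD (circles), AF9 KD (squares) and the difference (diamonds), from the fit with the replicate block, with the number of members in parentheses. The list labeled mast cell and eosinophil granule genes (-0.829) and that of sterol synthesis genes (-0.552) have the lowest medians in AF9 KD. DNA replication genes (0.436) have the highest in the difference.

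Transcript GC content moved with the AF9 effect. Across 12482 genes the Spearman's rho of GC content with the log2 change was 0.51 for AF9 KD, -0.067 for MLL1 KD and 0.475 for the difference. The tenth of the genes with the lowest GC content (median 36.8%) had a median difference of -0.301, and the tenth with the highest (median 64.0%) one of 0.564. Genes that rose in AF9 KD alone had a median GC content of 64.0% and those that fell one of 41.5%, against 48.1% for all genes. Genes that rose in MLL1 KD alone had a median of 41.6% and those that fell one of 54.8%. When the trend of each library with GC content was removed by offsets, the difference was called for 10 genes higher and 18 lower, and together with the block for 528 higher and 668 lower. In that last fit 25 of the 50 opposite genes, 320 of the 936 genes of AF9 KD alone, 175 of the 258 of MLL1 KD alone and 66 of the 100 alike genes remained in their class. UNC5B, SELENBP1, CD24, MYCT1, EPSTI1, TMEM170B and SORBS2 were still opposite there, SPTB, TMEM94, OPLAH and CLEC2B had moved in MLL1 KD alone, and RIPOR1 was in no class. EXOC3L2, PDLIM2, ELK3 and B3GNT5 were opposite there, and LLGL2 was in no class. Of the genes named as alike, PIK3R2 (0.38 in AF9 KD, difference -0.57, adjusted p = 0.0173) and ADGRL1 (0.35 in AF9 KD) left that class. ANXA1 moved in MLL1 KD alone (-0.51 in AF9 KD), and TSPAN32 (0.39 in AF9 KD) was in no class. The difference was called for all 34 genes named for one with GC content offsets and the block, and for 14 of the 34 with the offsets and no block. Of the lists, with offsets and block, erythroid genes had 10 higher and 1 lower, sterol synthesis 8 lower, DNA replication 9 higher, mast cell and eosinophil genes 3 lower and mitosis 1 lower. With the offsets and no block at most 1 gene of any of these 5 lists was called in the difference. Whether the trend comes from the cells or from the preparation of the libraries was not tested.

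**Figure D5:**
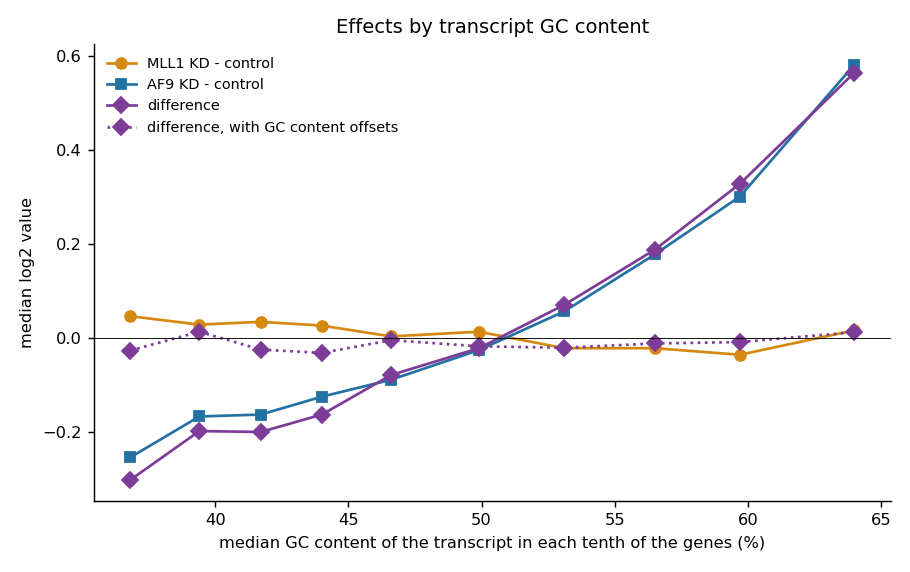
Median log2 value (vertical axis) of genes in 10 bins of equal size by transcript GC content (horizontal axis, median of the bin) for MLL1 KD, AF9 KD and the difference without the replicate block, and for the difference with GC content offsets (dotted). The difference goes from -0.301 in the lowest to 0.564 in the highest bin and stays between -0.031 and 0.014 with the offsets, and MLL1 KD stays between -0.035 and 0.047.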

How the data were processed

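RNA-seq was analysed in 10 HEL libraries; the other samples of the series were not used here. The authors deposited 2 tables of whole-number read counts per gene, 1 per experiment, with samples as columns (0 columns were left unused). Per the submitters' processing notes and the study's methods, reads were filtered with fastp 0.13.1, aligned to hg38 with HISAT2 2.1.0 with the strand setting RF and counted per gene with featureCounts 1.6.1; the annotation is not given in the sources used here. Both tables were joined by gene symbol, and the 10 libraries were fitted in 1 model of 4 group means with edgeR 4.0.16 (R 4.3.3; TMM factors, quasi-likelihood test, Benjamini-Hochberg adjustment). Genes needed a mean of at least 1 TPM in each table, from merged exon lengths of GENCODE v44 (92.3% of symbols matched). A call needed 1.5-fold and an adjusted p under 0.05. A gene moved oppositely or alike when it was called in both knockdowns, and in 1 knockdown alone when that change and the difference were called, with the difference pointing the same way as that change, and the other change was not. Library totals are sums of raw counts, and sums over gene lists are of CPM. The fits had 6 residual degrees of freedom (4 with the block). The test of edgeR adds prior degrees of freedom estimated across genes, and p-values and intervals rest on the total. The prior part was larger with the block.

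The replicate numbers of the labels paired the MLL1 libraries by the correlation of their deviations from group means (0.687, 0.379 and 0.407, all over 0.1; numbers 2 and 3 crossed gave 0.415 in both crossings, so the values do not tell 2 from 3), whereas the AF9 experiment had 2 pairs (0.177), which is too few to judge. Alternatives were DESeq2 1.42.0, its size factors, other filters on low values, the block in both experiments, offsets for GC content (lowess, span 0.3), 1 fit per table, MLL1 replicates 2 and 3 alone, and leaving out each library. Leaving out libraries in the fit with the block, and the recount of lists under the alternatives, were chosen after seeing the data. The scripts were tested on simulated data.

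The genes and lists were chosen with earlier results of these data known. Named genes are the targets, genes the study names, and up to 6 per class and direction, ordered by the size of the difference (alike: by the smaller effect), genes of the fit without the block first, with more than 3 counts in a library of every group, at least 5 CPM in a group, and KD libraries apart from controls. Members of lists were named where the difference was called; EAF2, HMGCS1, TPSAB1, TPSB2, DDIT4 and CHAC1 were named after their values were seen, and 1 list member is not reported here. Hairpin sequences are from the study's supplement, matched to GENCODE v44 transcripts (hg38).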

Additional observations from a re-analysis of the deposited data

Results flagged for a closer look

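Each result here was taken up because the effects of the 2 knockdowns differed from each other by the test of the difference itself (edgeR's quasi-likelihood test, adjusted p under 0.05). The values are log2 differences, AF9 KD less MLL1 KD, without the replicate block. Among the genes that moved oppositely in either fit they were 1.79 for UNC5B, 1.68 for SELENBP1, 1.64 for SPTB, 1.47 for RIPOR1 and 1.37 for TMEM94, and -3.49 for CD24, -2.37 for CLEC2B, -2.28 for MYCT1, -2.08 for EPSTI1 and -1.98 for TMEM170B.

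Among the genes that moved in AF9 KD alone the values were 3.10 for ST8SIA1, 2.86 for LGALS3BP, 2.58 for EXOC3L2, 2.00 for STUM, 1.86 for PDLIM2 and 1.84 for LLGL2, and -2.16 for MLLT3, -2.12 for IL1RL1, -1.89 for MIR3681HG, -1.81 for CPA3 and -1.80 for ELK3. Among those that moved in MLL1 KD alone they were -2.91 for GFI1, -2.60 for C2orf66, -2.46 for VEPH1, -2.08 for ENC1 and -1.99 for CD48, and 2.32 for ALAS2, 2.21 for SLC6A8, 1.70 for B3GNT5, 1.41 for AGFG2, 1.20 for ESYT1 and 1.14 for SMC1A.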

How the results depend on the processing

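The number of genes depended on how the spread was estimated, and the cause was not tested where no value is given. In the order higher and lower in the difference, opposite, AF9 KD alone, MLL1 KD alone and alike, the counts were 73, 100, 6, 98, 21 and 17. With the replicate block in the MLL1 libraries they were 1038, 885, 50, 936, 258 and 100, and with it in both experiments 1057, 888, 49, 956, 259 and 93, although the 2 AF9 pairs are too few to pair by their correlation (0.177). DESeq2 gave 361, 394, 16, 364, 113 and 31. GC content offsets gave 10, 18, 2, 12, 9 and 7, and with the block 528, 668, 29, 420, 250 and 80. MLL1 replicates 2 and 3 alone gave 1135, 926, 48, 1018, 234 and 83. Testing all genes with at least 1 count gave 26, 44, 4, 42, 17 and 11, and a mean of at least 1 TPM in either table gave 39, 55, 4, 59, 16 and 14. With 1 fit for each table, which has no test of the difference, 1 gene was opposite, 1632 moved in AF9 KD alone, 6 in MLL1 KD alone and 1 alike. Without single libraries, over both kinds of fit, the counts ran from 0 to 1151, 1 to 922, 0 to 57, 0 to 1031, 0 to 268 and 0 to 88; where this left 1 library in an AF9 group, it was assumed to vary like the other groups. DESeq2 size factors and a minimum of 5 TPM kept all 6 counts within 1.5 times.

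No named difference that was called changed its sign. Differences near 0, none of them called, did. At a minimum of 5 TPM PIK3R2 was 0.0103 and RHOC 0.0182, and RHOC was 3e-04 with 1 TPM in either table and 0.0059 with 1 fit per table. With GC content offsets PTPRF was -0.2634, ADGRL1 -0.3016 and MLLT1 -0.3014, and with the block too -0.2634, -0.2985 and -0.304. With MLL1 replicates 2 and 3 HEMGN was -0.0449, MYC -0.0552 and GLUL -0.0385. Without single libraries PIK3R2 ran from -0.0926 to 0.0439, RHOC from -0.1132 to 0.0983, PTPRF from -0.0335 to 0.1675, HEMGN from -0.1246 to 0.321, MYC from -0.0547 to 0.0903, GLUL from -0.0388 to 0.2968, POLR2A from -0.2017 to 0.0806, PRG2 from -0.1056 to 0.7534 and CALB2 from -0.0631 to 0.8491.

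At 6966345 to 14232408 counts a library, genes under a mean of 1 TPM were not tested, and a change in them was not detectable here.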

Other observations

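Of the 50 genes that moved oppositely in the fit with the replicate block, those below were chosen after their values were seen, and none was called in all 3 comparisons without the block. Those named first fell in MLL1 KD and rose in AF9 KD. ICAM1, an adhesion molecule of the immunoglobulin superfamily, was at 69.3, 73.1 and 83.01 CPM in controls and 25.3, 46.4 and 41.3 CPM in MLL1 KD cells. ICAM1 was at 11.1 and 12.5 CPM in the controls of the AF9 experiment and 22.1 and 26.6 CPM in AF9 KD cells (difference 2.08 ± 0.22, adjusted p = 6.71e-06). ITGB2, the beta chain of the leukocyte integrins that bind ICAM1, was at 108, 148 and 164 CPM and 40.2, 96.7 and 100.4 CPM in the MLL1 experiment, controls first. It was at 53.4 and 67.9 CPM and 87.5 and 95.05 CPM in the AF9 experiment (difference 1.49 ± 0.20, adjusted p = 6.31e-05). In both genes the KD libraries lay outside the range of their controls in each experiment. FGFR3, a fibroblast growth factor receptor, was at 44.4, 108 and 114 CPM in controls and 16.5, 61.7 and 53.9 CPM in MLL1 KD cells. FGFR3 was at 34.1 and 47.4 CPM in the controls of the AF9 experiment and 84.5 and 103 CPM in AF9 KD cells (difference 2.28 ± 0.20, adjusted p = 1.13e-06), and its MLL1 groups overlapped. RELN, which encodes the secreted protein reelin (1.22 ± 0.16), FDXR, ferredoxin reductase of mitochondria (1.65 ± 0.26), and CD276, an immune checkpoint ligand of low level here (2.37 ± 0.44), moved in the same direction.

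The others rose in MLL1 KD and fell in AF9 KD. IFI16, an interferon-inducible DNA sensor, was at 251, 273 and 259.8 CPM in controls and 302, 449 and 464 CPM in MLL1 KD cells. IFI16 was at 135 and 104 CPM in the controls of the AF9 experiment and 73.6 and 57.6 CPM in AF9 KD cells (difference -1.48 ± 0.19, adjusted p = 4.17e-05). SESN3, a stress-inducible sestrin, was at 10.6, 38.7 and 45.7 CPM and 24.7, 85.01 and 78.5 CPM in the MLL1 experiment, controls first. It was at 119.5 and 101 CPM and 40.6 and 44.4 CPM in the AF9 experiment (difference -2.40 ± 0.17, adjusted p = 7.16e-08). The MLL1 groups of SESN3 overlapped while each KD library lay above the control of its number, and those of IFI16 did not overlap. ARID5B, a DNA-binding cofactor (-1.61 ± 0.28), BAMBI, a pseudoreceptor that dampens TGF-beta signaling (-1.48 ± 0.21), and NCKAP1, a subunit of the WAVE complex (-1.30 ± 0.15), moved in the same direction.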
